A study of Rattus norvegicus with 12 samples.

Results

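Gene expression in NRK-52E cells, an established rat kidney line labelled as wild-type tubular epithelium, was compared between cells given extracellular vesicles (EVs) after TGF-beta1 and cells given TGF-beta1 alone. All cells grew in DMEM with 10% fetal bovine serum. The cytokine was left on TGF-beta1 cells for 24 h. Its labelled dose is 10 µg/ml, and the unit may be an error, because the cytokine is usually dosed in ng/ml. The vesicle-treated groups had the same cytokine step, after which EVs at 500000000 particles/ml were added for 48 h: 2D-EVs in 1 group and 3D-EVs in the other. Both groups were pooled as the mean of their 2 group means, each with weight 0.5, and set against TGF-beta1 cells. The comparison thus used 9 of the 12 libraries of the series, 6 on the vesicle side and 3 with TGF-beta1 alone. The 3 control libraries carry no named agent and were on neither side of it. They entered the choice of genes tested, the scaling and the shared estimate of spread. They also serve as levels in the descriptions and as the reference for a grouping of genes given at the end. What was asked was which differences are shared by the 2 preparations. The sources used here give neither the vesicles' cells of origin, nor the fate of the cytokine during the EV treatment, nor the harvest time of the TGF-beta1 group. A difference found here can therefore come with the vesicles, with up to 48 h of further culture or with withdrawal of the cytokine, and these cannot be told apart.

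TGF-beta1 binds a pair of receptor kinases, and the SMAD proteins they phosphorylate enter the nucleus and switch on genes for matrix, contractile proteins and the pathway's own brakes, SMAD7 among them. In renal tubule cells this programme is known for a loss of epithelial features and a gain of fibroblast-like ones, and YAP, which responds to cell tension, acts on several of the same genes. EVs are membrane-bound particles shed by cells, carrying protein and RNA, that are taken up by endocytosis and largely pass to lysosomes.

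The 12 libraries held 32888125 to 39754319 counts, and 15915 to 16072 genes had a count in a library. Mitochondrially encoded genes took 5.31 to 5.58% of the counts. Levels are given as CPM, counts scaled by TMM to a common library total, with the 3 libraries of a group in the order of their numbers. Of 24660 genes in the table, 14184 had enough counts to be tested, 2178 of them under placeholder symbols. Adjusted p-values come from edgeR's quasi-likelihood test with the Benjamini-Hochberg adjustment over all 14184 genes, and a gene was called where this was below 0.05. Because no label states that libraries of a group came from separate cultures, these p-values are relative to a spread between libraries that may be technical. The labelled cell type was only partly borne out by its markers. Of 12 genes listed for tubular epithelium, 7 were tested. Krt8, an epithelial keratin, stood at 1170.2 to 1252 CPM in TGF-beta1 cells and 1139 to 1192 CPM in vesicle-treated cells, whereas Cdh1, the epithelial cadherin, stood at 0.0595 to 0.46 CPM over the 9 libraries and Umod, a tubule-specific secreted protein, was at 0 in all 12.

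No gene was called in the pooled comparison: 0 of 14184 (0%) passed with edgeR, and the smallest adjusted p was 0.237. At an unadjusted p below 0.05 there were 1040 genes (7.33%), where 5% of the tested genes would be 709. They comprised 490 higher with vesicles (3.45%) and 550 lower (3.88%). limma-voom also called 0 genes (smallest adjusted p 0.163, 1062 at an unadjusted p below 0.05). DESeq2, run on the same counts, called 43 genes (0.303%), 14 higher and 29 lower, with 977 at an unadjusted p below 0.05. In 30 of the 43, all 6 vesicle libraries lay on the same side of the 3 TGF-beta1 libraries. Because the 43 were selected by p-values from the same libraries, their separation is no independent support for the calls. Over all tested genes such a separation was seen upward in 233 (1.64%) and downward in 271 (1.91%). The genes described below by their values are mainly those with the smallest p-values, over all genes or within a list. A fixed panel, further list members and genes that vary within a group are described as well. None of these genes passed the edgeR test of the pooled comparison. The words higher and lower describe their levels in these libraries.

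Differences were mostly small. The median log2 fold change was 0.00057, and from the lower to the upper quartile of genes it ran only from -0.056 to 0.06. Of the 138 genes whose fitted change was at least 1 log2 unit in either direction, 121 had a mean below 1 CPM, where the median absolute log2 fold change was 0.287. Highly expressed genes leaned downward among small p-values: of 4327 genes with a mean of at least 50 CPM, 270 were lower (6.24%) and 169 higher (3.91%) at an unadjusted p below 0.05.

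**Figure D1:**
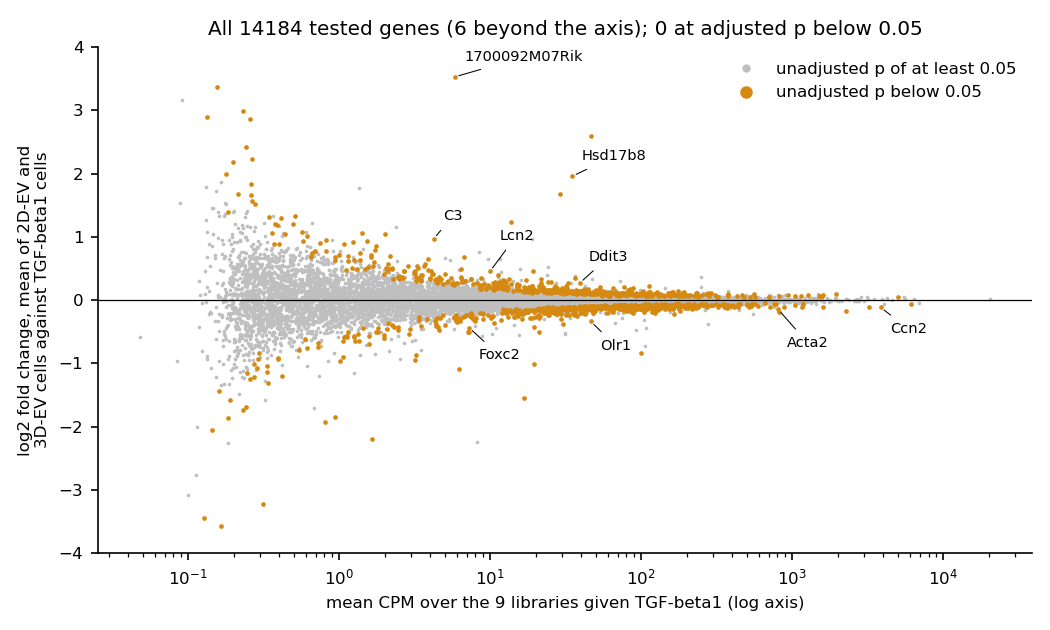
Log2 fold change of the mean of 2D-EV and 3D-EV cells against TGF-beta1 cells (vertical axis) by mean CPM over the 9 libraries (horizontal, log axis), 1 point for each of 14184 tested genes, with 6 beyond the vertical limits. Orange points have an unadjusted p below 0.05; 0 genes passed after adjustment, and above 50 CPM nearly all points lie close to 0.

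The data were precise enough to bound most changes. For 12541 of the tested genes (88.4%) the 95% interval of the log2 fold change lay within 1 unit of 0, and for 76.2% within 0.5. The median distance from the estimate to its interval's bound was 0.0799 log2 units for genes of 50 to 500 CPM and 0.929 for genes under 1 CPM. Changes of many weakly expressed genes, receptors and cytokines among them, were therefore not resolvable at this depth, whereas a change of 1 log2 unit lay outside the interval of 99.8% of genes at 50 to 500 CPM.

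**Figure D2:**
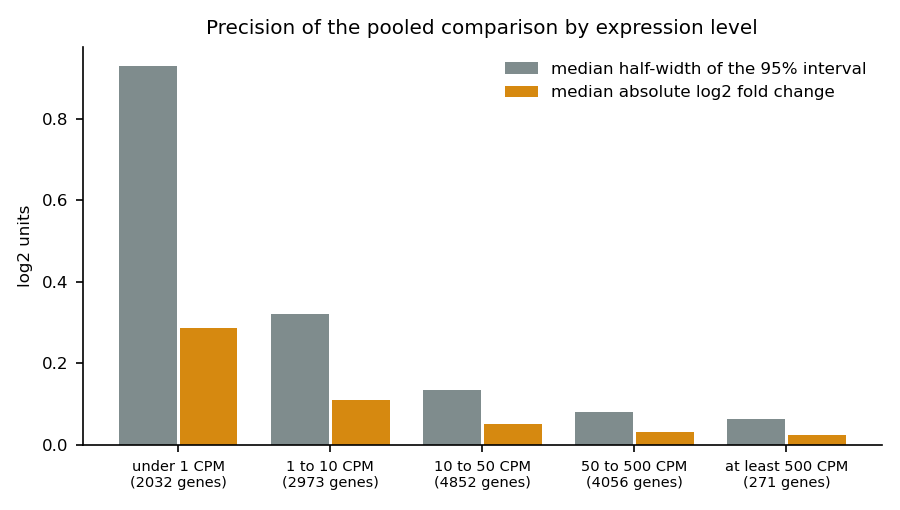
Median distance from the estimate to the bound of its 95% interval (grey bars) and median absolute log2 fold change (orange bars), both in log2 units, for tested genes in 5 classes of mean CPM. The grey bars drop from 0.929 under 1 CPM to 0.0636 at 500 CPM and above, and in every class they exceed the orange bars.

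The smallest p of all belonged to Ddit3, which encodes CHOP, a transcription factor of the integrated stress response. Its level was 35.3, 33.2 and 35 CPM in TGF-beta1 cells, 42.2, 43.4 and 39.9 with 2D-EVs and 40.3, 42 and 41.9 with 3D-EVs. All 6 vesicle libraries lay above the 3 TGF-beta1 libraries, and the 2 preparations overlapped each other. The pooled log2 fold change was 0.27 (SE 0.04, 95% interval 0.18 to 0.37, adjusted p = 0.237), made up of 0.28 with 2D-EVs and 0.26 with 3D-EVs. DESeq2 gave Ddit3 an adjusted p of 0.000551, and over all settings tried it ran from 0.000551 to 0.546. Control cells stood at 36.8 ± 0.972 CPM (SD, n = 3), nearer to TGF-beta1 cells than to vesicle-treated cells. In bulk RNA, fewer cells expressing a gene and less of its RNA per cell cannot be told apart, here and for every gene below.

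Smad7 and Snai1, 2 direct targets of the TGF-beta pathway, were lower in both preparations. Smad7, the inhibitory SMAD that switches the receptors off, stood at 135, 122 and 129 CPM with TGF-beta1, 112, 116 and 105 with 2D-EVs and 118, 114 and 116 with 3D-EVs. No vesicle library reached the lowest TGF-beta1 library, and control cells were lower still at 107 ± 3.68 CPM (SD, n = 3). The pooled log2 fold change was -0.18 (SE 0.04, edgeR adjusted p = 0.237, DESeq2 0.0108, over all settings 0.0108 to 0.685), and 3D-EV over 2D-EV cells differed by 0.07 (SE 0.04, not called). Snai1, a repressor of epithelial genes and a transcription factor of epithelial-mesenchymal transition, stood at 31.3, 30.5 and 29.8 CPM with TGF-beta1, 27.2, 25.3 and 25.5 with 2D-EVs and 26.1, 25.7 and 27.1 with 3D-EVs. Again no library overlapped, with a log2 fold change of -0.23 for 2D-EVs and -0.21 for 3D-EVs, but neither edgeR nor DESeq2 called it (edgeR adjusted p = 0.281).

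Tnfrsf12a and Plaur, both surface receptors, also had all 6 vesicle libraries below the TGF-beta1 libraries. Tnfrsf12a, the receptor of the cytokine TWEAK, was measured at 244, 239 and 247 CPM in TGF-beta1 cells, 219, 221 and 220.4 with 2D-EVs and 223, 227 and 227 with 3D-EVs. The 3 groups did not overlap, the vesicle groups being lower by a log2 fold change of -0.13 (SE 0.03, adjusted p = 0.237). Plaur, the urokinase receptor, which focuses matrix proteolysis at the cell surface, stood at 142, 129 and 137 CPM with TGF-beta1, 121, 114 and 118 with 2D-EVs and 122, 123 and 113 with 3D-EVs. Its 6 vesicle libraries were all lower, with a pooled log2 fold change of -0.20 (SE 0.04, adjusted p = 0.254). Control cells were lower for both genes, at 179 CPM for Tnfrsf12a and 83.6 CPM for Plaur.

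Other genes with small p-values and lower levels in both preparations had varied roles. Foxc2, a forkhead factor of mesenchymal tissue, was weakly expressed, at 8.28, 8.79 and 9.32 CPM in TGF-beta1 cells against 6.44, 6.17 and 6.74 with 2D-EVs and 6.32, 6.69 and 6.67 with 3D-EVs. Its log2 fold change of -0.44 (SE 0.08, adjusted p = 0.237) was made of -0.45 with 2D-EVs and -0.42 with 3D-EVs, and the difference between the preparations was 0.02 (SE 0.10). The Hippo kinase Lats2, which restrains YAP, stood at 234, 226 and 235 CPM, then 205, 205 and 204 CPM with 2D-EVs and 222, 214 and 209.7 CPM with 3D-EVs (log2 fold change -0.14, SE 0.03). Itsn1, which encodes the endocytic scaffold intersectin-1, was at 87.5, 87.7 and 89.1 CPM with TGF-beta1 and 79 to 81.2 CPM over the 6 vesicle libraries (-0.14, SE 0.03). Specc1, a coiled-coil protein of the cytospin family, was at 155, 151 and 155 CPM and 137 to 144 CPM (-0.13, SE 0.03). Peg10, an imprinted gene derived from a retrotransposon, was at 40.1, 43.3 and 43.3 CPM and 33 to 39.1 CPM (-0.25, SE 0.05). In each of these genes the vesicle and TGF-beta1 libraries did not overlap, edgeR's adjusted p was 0.237, and control cells were lower again, at 3.94 CPM for Foxc2, 191 for Lats2 and 20.2 for Peg10. Src, a tyrosine kinase of focal adhesions (167 to 173 against 155 to 163 CPM), Nhsl1 (93.2 to 100.4 against 78.1 to 89.9 CPM) and Hip1r, a linker of clathrin coats to actin (122 to 135 against 113 to 118 CPM), had the same order.

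Among genes with higher levels in both preparations, Adhfe1 and Hadh encode mitochondrial enzymes. Adhfe1, a mitochondrial enzyme that oxidises 4-hydroxybutyrate, stood at 4.95, 4.83 and 5.44 CPM in TGF-beta1 cells, 6.21, 7.5 and 7.45 with 2D-EVs and 6.34, 7.35 and 7.95 with 3D-EVs. Every vesicle library was above every TGF-beta1 library (log2 fold change 0.49, SE 0.10, adjusted p = 0.237), yet all were below the control mean of 12.4 CPM. Hadh, a dehydrogenase of mitochondrial fatty acid oxidation, stood at 21.2, 22.4 and 19.7 CPM with TGF-beta1, 27.2, 22.8 and 25.9 with 2D-EVs and 26.4, 26.9 and 25.5 with 3D-EVs, with a log2 fold change of 0.29 (SE 0.06, adjusted p = 0.254) and a control mean of 28.3 CPM. Flrt3, a transmembrane adhesion protein, was at 78.1, 78.7 and 74.8 CPM with TGF-beta1 and 84.1 to 93 CPM with vesicles, with the same estimate of 0.18 for each preparation. Csf1, the macrophage colony-stimulating factor, was at 73.9, 74.9 and 79 CPM and 80.2 to 88.6 CPM (log2 fold change 0.16, SE 0.04). Mtss1, a membrane-bending regulator of actin (17.7 to 20.4 against 21.6 to 25.2 CPM), and Mgst1, a membrane-bound glutathione transferase (13.2 to 16.7 against 16.9 to 19.3 CPM), also separated without overlap.

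Lcn2, an iron-binding protein secreted by injured tubules, was higher in both preparations. It stood at 7.76, 8.18 and 7.97 CPM in TGF-beta1 cells, 11.3, 8.72 and 9.58 with 2D-EVs and 11.1, 13.7 and 11.6 with 3D-EVs. Control cells stood at 9.98, 9.54 and 11.2 CPM, above TGF-beta1 cells and within the range of the vesicle libraries. The lowest vesicle library was close to the highest TGF-beta1 library, and the pooled log2 fold change was 0.46 (SE 0.10, adjusted p = 0.254). The estimate was 0.31 with 2D-EVs and 0.61 with 3D-EVs, a difference of 0.30 (SE 0.11) that was not called. C3, the central complement component, was at 2.44, 2.3 and 2.86 CPM with TGF-beta1, 4.02, 4.19 and 3.72 with 2D-EVs and 5.5, 9.34 and 3.72 with 3D-EVs. Its log2 fold change of 0.97 (SE 0.23, adjusted p = 0.291) was 0.76 without the second 3D-EV library, which stands apart from the other 2 of its group. The control mean of C3 was 2.21 CPM.

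**Figure D3:**
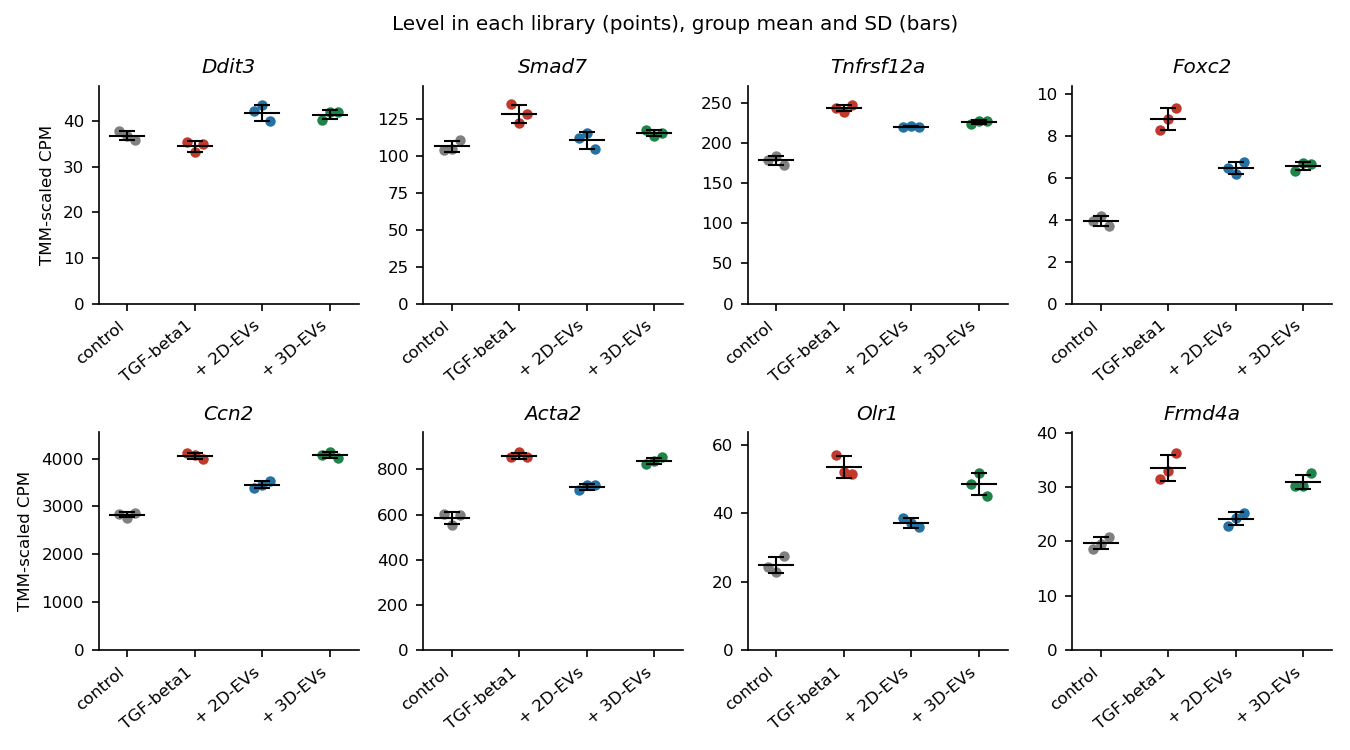
TMM-scaled CPM (vertical axes, from 0) of 8 genes in the 12 libraries (points), with the mean and SD of each group of 3 (bars). Ddit3, Smad7, Tnfrsf12a and Foxc2 have both vesicle groups on the same side of the TGF-beta1 group, whereas for Ccn2 the 3D-EV libraries overlap the TGF-beta1 libraries and the 2D-EV libraries lie below.

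For another set of genes the pooled estimate averaged unlike preparations. Ccn2, a matricellular growth factor that both SMADs and YAP induce, stood at 4115, 4075 and 3990.5 CPM with TGF-beta1, 3385, 3438 and 3529.9 with 2D-EVs and 4066, 4139 and 4012 with 3D-EVs. The 2D-EV libraries were all lower, and the 3D-EV libraries overlapped those of TGF-beta1 cells. The pooled log2 fold change of -0.12 (SE 0.02, adjusted p = 0.237) thus combined -0.23 with 2D-EVs and 0.0043 with 3D-EVs. The difference between the preparations was 0.24 (SE 0.03, adjusted p = 0.00189), and Ccn2 was the only gene of 14184 (0.00705%) that edgeR called there, with 978 at an unadjusted p below 0.05. DESeq2 called 21 genes and limma-voom 2 in that comparison.

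Acta2, the smooth muscle actin of myofibroblasts, followed the same order. Its level was 853, 876 and 854 CPM in TGF-beta1 cells, 709, 731 and 730.2 with 2D-EVs and 826, 837 and 853 with 3D-EVs, against 585 in control cells. All 2D-EV libraries were below all others given TGF-beta1, while the 3D-EV libraries reached the lower end of the TGF-beta1 range. The pooled log2 fold change was -0.14 (SE 0.03, adjusted p = 0.237), and that of 3D-EV over 2D-EV cells was 0.21 (SE 0.03), which edgeR did not call (adjusted p = 0.0698) and limma-voom (0.0364) and DESeq2 (1.45e-06) did, with the highest value, 0.432, reached without the first 2D-EV library. Olr1, the scavenger receptor for oxidised low-density lipoprotein, stood at 57.2, 52.2 and 51.4 CPM with TGF-beta1, 38.6, 37.1 and 35.9 with 2D-EVs and 48.7, 51.7 and 45.2 with 3D-EVs. Its pooled log2 fold change of -0.33 (SE 0.06, adjusted p = 0.237) was made of -0.53 and -0.14, with 1 of the 3D-EV libraries inside the TGF-beta1 range. Frmd4a, a FERM-domain scaffold protein, was at 31.5, 32.8 and 36.2 CPM with TGF-beta1, 22.9, 24.3 and 25.2 with 2D-EVs and 30.2, 30.2 and 32.5 with 3D-EVs (-0.47 with 2D-EVs and -0.11 with 3D-EVs). The differences between preparations for Olr1 and Frmd4a, 0.38 and 0.36, had edgeR adjusted p-values of 0.159 for each.

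A similar order, with 2D-EV libraries lowest among cells given TGF-beta1, was seen in further genes without an edgeR call between preparations. Edn1, the vasoconstrictor endothelin-1, was at 181, 179 and 185 CPM, then 127, 148 and 150.2 with 2D-EVs and 181, 178 and 159 with 3D-EVs. Its pooled estimate of -0.21 came mainly from 2D-EV cells, since the 3D-EV estimate was -0.07. Tagln, the actin-binding protein transgelin, stood at 635, 608 and 613 CPM with TGF-beta1, 526, 535 and 569 with 2D-EVs and 608, 624 and 627 with 3D-EVs, a pooled log2 fold change of -0.09 (SE 0.03). The thrombin receptor F2r (-0.18 with 2D-EVs and -0.05 with 3D-EVs) and Cald1, which encodes the contractile regulator caldesmon (-0.17 and -0.04), were alike. Thbs1, a matrix protein that activates latent TGF-beta, differed in size rather than in overlap: it stood at 2365, 2466 and 2538 CPM with TGF-beta1, 2135, 2044 and 1979 with 2D-EVs and 2344, 2314 and 2282 with 3D-EVs, so that all 6 vesicle libraries were lower (-0.26 and -0.09).

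**Figure D4:**
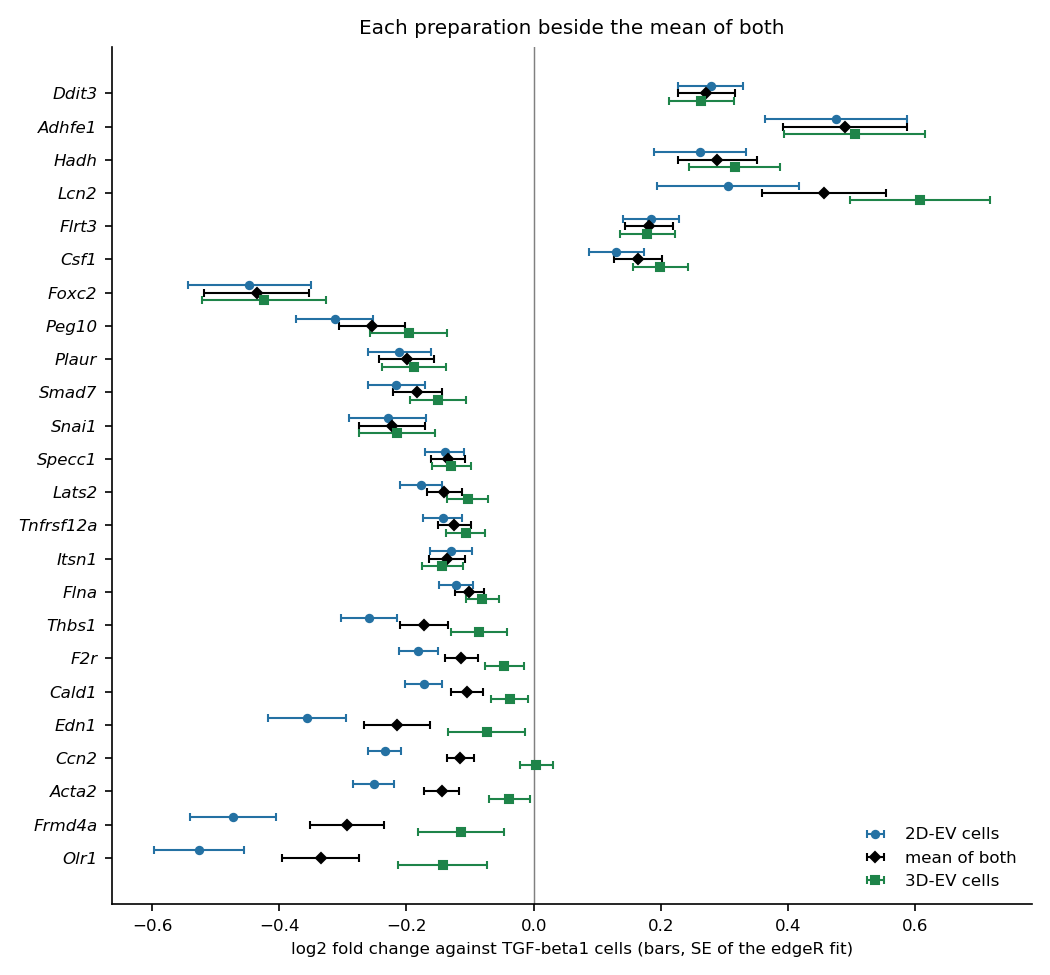
Log2 fold change against TGF-beta1 cells (horizontal axis) of 24 genes with small p-values in the pooled comparison, for 2D-EV cells (blue circles), 3D-EV cells (green squares) and their mean (black diamonds), with the SE of the edgeR fit as bars. The 2 preparations share the same 3 TGF-beta1 libraries. Symbols nearly coincide for Ddit3, Foxc2, Snai1, Specc1 and Itsn1 and are apart for Ccn2 (-0.23 and 0.0043) and Acta2 (-0.25 and -0.04).

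The stretches of 250 bases before the annotated starts of 4 of these genes, taken from RefSeq on build GRCr8, are printed to show which short elements lie there. The deposited counts carry no coordinates and were made on mRatBN7.2, so the positions belong to the RefSeq table alone. The 4 were chosen after their values were seen: Ddit3 was alike in both preparations, and Ccn2, Acta2 and Olr1 were lower with 2D-EVs than with TGF-beta1 alone or with 3D-EVs. Capitals mark matches, on either strand, to GGAATG (the core bound by TEAD factors, the partners of YAP), TGANTCA (the element bound by AP-1) or the CArG box bound by serum response factor (CC and GG set 6 bases apart, at least 5 of the 6 being A or T). The last search was added after the sequences were seen. The exact letters AGCCAGACA (the SMAD-bound CAGA box), CATATTAGG (part of 1 form of the CArG box) and TGATGCAA (an ATF4 element) were not found in these windows, which leaves other forms of those elements unsearched save for the CArG box.
Ddit3, chr7:65001445-65001694, plus strand: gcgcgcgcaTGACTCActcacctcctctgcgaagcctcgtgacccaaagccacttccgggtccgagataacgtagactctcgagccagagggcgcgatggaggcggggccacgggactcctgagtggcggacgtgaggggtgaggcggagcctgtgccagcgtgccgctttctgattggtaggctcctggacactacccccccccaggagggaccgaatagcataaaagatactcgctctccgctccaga
Ccn2, chr1:22624615-22624864, minus strand: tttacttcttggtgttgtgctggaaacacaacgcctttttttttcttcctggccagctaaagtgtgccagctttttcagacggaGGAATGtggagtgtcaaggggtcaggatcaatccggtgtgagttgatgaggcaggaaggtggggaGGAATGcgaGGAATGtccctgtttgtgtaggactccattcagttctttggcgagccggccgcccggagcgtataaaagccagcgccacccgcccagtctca
Acta2, chr1:241172504-241172753, minus strand: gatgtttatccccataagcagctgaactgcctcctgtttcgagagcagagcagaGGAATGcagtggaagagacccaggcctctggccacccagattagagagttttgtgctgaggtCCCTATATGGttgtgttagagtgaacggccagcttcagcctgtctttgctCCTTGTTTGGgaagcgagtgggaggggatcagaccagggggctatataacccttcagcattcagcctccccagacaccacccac
Olr1, chr4:164634548-164634797, minus strand: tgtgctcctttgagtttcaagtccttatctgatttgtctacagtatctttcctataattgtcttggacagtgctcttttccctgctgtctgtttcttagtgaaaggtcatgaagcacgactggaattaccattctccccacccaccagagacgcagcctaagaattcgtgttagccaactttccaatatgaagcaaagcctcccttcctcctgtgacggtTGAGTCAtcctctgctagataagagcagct

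Acta2 held 2 matches to the wider CArG box, from 134 to 125 and from 84 to 75 bases before the start. Ccn2 held 3 matches to GGAATG and Acta2 held 1, while Ddit3 and Olr1 each held 1 match to TGANTCA. Among 33469 promoter windows of the same length, 12.1% held GGAATG, 6.34% TGANTCA, 0.314% AGCCAGACA, 0.0926% CATATTAGG, 0.693% TGATGCAA and 8.08% the wider CArG box. A match is a description of the letters in the window and does not show that a factor binds there.

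Gene lists give the wider view, read beside the shares over all tested genes at an unadjusted p below 0.05 (3.45% higher, 3.88% lower) and beside 6.24% lower among genes of at least 50 CPM, since many list members are highly expressed. In none of the 33 response lists was a gene called by edgeR. Contractile and mesenchymal genes held the most lower members: 14 of 39 tested (35.9%) against 1 higher, with a median log2 fold change of -0.05. Beside Acta2, Cald1 and Tagln, the 14 included Flna, the actin crosslinker filamin A, at 1211, 1215 and 1246 CPM with TGF-beta1, 1113, 1138 and 1123 with 2D-EVs and 1173, 1148 and 1150.2 with 3D-EVs. All 6 vesicle libraries of Flna were lower, as were those of Smtn, Cnn2 and Srf. These were 4 of the 39, and such an order was seen in 1.91% of all tested genes. Myh9, a non-muscle myosin heavy chain (1640.4 to 1734 against 1490.5 to 1652 CPM), Actn1, the crosslinker alpha-actinin (278 to 295 against 244 to 289 CPM), and Srf, the transcription factor that drives contractile genes (86.6 to 92.5 against 72.8 to 86.2 CPM), were also among the 14. The list's median was -0.10 with 2D-EVs and -0.02 with 3D-EVs, and 32 of its 39 members were higher with 3D-EVs than with 2D-EVs. With the 6 vesicle libraries fitted as a single group the count of lower members was 9.

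Of 35 tested TGF-beta targets and feedback genes, 7 were lower (20.0%) and 1 higher, around a median of -0.01. The lower members included Ccn2, Smad7, Thbs1, Snai1, Pmepa1, a membrane-bound feedback inhibitor (-0.10), and Smad3, a signal transducer of the pathway (-0.14). The higher member was Id2, a helix-loop-helix inhibitor (0.15). The list's median lay near that of all genes, and Tgfb1, the cytokine's own gene, was at 186, 187 and 188 CPM with TGF-beta1 and 165 to 194 CPM with vesicles (-0.05, SE 0.04). Among the YAP and mechanical targets 7 of 30 were lower (23.3%) and 0 higher, Ccn2 counting here too. Ccn1, a matricellular relative of Ccn2, was at 884, 853 and 911 CPM, then 657, 776 and 755 with 2D-EVs and 865, 845 and 775 with 3D-EVs (log2 fold change -0.18, SE 0.05). Its first 2D-EV library was the lowest of all, and 1 3D-EV library lay inside the TGF-beta1 range.

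The median of matrix genes stood at the level of TGF-beta1 cells. It was 0.0006 over 44 tested members, with 22 on either side of 0. At an unadjusted p below 0.05, 6 were lower (13.6%) and 0 higher. The lower share was 3.88% over all tested genes and 6.24% among those of at least 50 CPM. Fbn1 had the largest fall of the 6 (log2 fold change -0.58, SE 0.26), with all 6 vesicle libraries below those with TGF-beta1. Col1a1, a chain of type I collagen, was at 338, 364 and 364 CPM with TGF-beta1, 403, 362 and 309 with 2D-EVs and 359, 358 and 389 with 3D-EVs. Fn1, fibronectin, was at 902, 944 and 959 CPM with TGF-beta1, 953, 918 and 810.3 with 2D-EVs and 1002, 998 and 975 with 3D-EVs. The groups overlapped for both, and control cells were at 177 and 585 CPM. The 95% interval of the pooled log2 fold change ran from -0.14 to 0.20 for Col1a1 and from -0.09 to 0.11 for Fn1, and the sign of each estimate turned when single libraries were left out. Lama3, a laminin chain (129 to 147 against 114 to 138 CPM), and Fbln2, the matrix protein fibulin-2 (164, 164 and 164 CPM with TGF-beta1 against 143 to 158 with vesicles), had the smallest p-values among matrix genes. The 6 lower matrix members became 3 without TGF-beta1 library 2, 2D-EV library 3 or 3D-EV library 3, and 1 without TGF-beta1 library 3.

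Vim, the mesenchymal intermediate filament vimentin, was measured at 2755, 2749.5 and 2724 CPM with TGF-beta1, 2579.6, 2635 and 2829 with 2D-EVs and 2769, 2778 and 2685 with 3D-EVs, groups that overlapped (log2 fold change -0.02, 95% interval -0.07 to 0.04). Among 33 integrin and adhesion genes 6 were lower (18.2%) and 2 higher (6.06%), a count of 2 lower without TGF-beta1 library 3. Ptk2, the focal adhesion kinase, was at 328 to 343 against 312 to 329 CPM. Immediate early genes had the lowest list median, -0.06 over 39 members, 27 of them below 0. At an unadjusted p below 0.05, 4 were lower (10.3%) and 1 higher (2.56%). Csrnp1 (96.5 to 107 against 88.7 to 96.8 CPM) and Phlda1 (88 to 102 against 77.9 to 90.8 CPM) led that list, and the summed level of its members varied from 2405 to 2693 CPM between the TGF-beta1 libraries alone.

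On the higher side, lysosomal genes had small estimates of mostly the same sign. Of 46 tested, 41 had an estimate above 0, with a median of 0.04 and 8 higher against 0 lower (17.4%). Ctsl, the protease cathepsin L, was at 1879.5, 1886 and 1797 CPM with TGF-beta1, 2024, 1937 and 1855 with 2D-EVs and 1978, 2015 and 2120.4 with 3D-EVs (log2 fold change 0.10, SE 0.03). Atp6v1a, a subunit of the proton pump that acidifies lysosomes, was at 348 to 369 CPM against 369 to 388, and Lamp1, a major lysosomal membrane protein, at 1491 to 1564 against 1529.6 to 1709. The summed level of the list was 17130 to 17650 CPM in TGF-beta1 libraries, 16970 to 18320 with 2D-EVs and 18200 to 19070 with 3D-EVs. Only the 3D-EV libraries lay wholly above those of TGF-beta1 cells, and the list's median was 0.02 with 2D-EVs and 0.07 with 3D-EVs. The 8 higher members became 3 without TGF-beta1 library 1 and 4 without 3D-EV library 3. Endocytosis and vesicle handling genes were nearer to 0 (median 0.02, 3 of 38 higher and 1 lower), and their leading members, Cavin2 (217 to 224 against 228 to 253 CPM) and Cav2 (42.3 to 44 against 44.3 to 51 CPM), both build caveolae.

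Interferon response genes had the highest list median, 0.07 over 46 members, with 7 higher (15.2%) and 1 lower (2.17%). Only 7 of the 46 had a mean of at least 50 CPM. B2m, the light chain of class I major histocompatibility molecules, was among them, at 1236, 1215 and 1214 CPM with TGF-beta1, 1288, 1247 and 1194 with 2D-EVs and 1280.5, 1382 and 1412 with 3D-EVs. All 3D-EV libraries were above the TGF-beta1 libraries, and the 2D-EV libraries overlapped them. Gbp4, an interferon-induced GTPase, had 6 to 8 counts in the TGF-beta1 libraries, 7, 19 and 14 with 2D-EVs and 22, 22 and 14 with 3D-EVs. The 7 higher members became 4 without TGF-beta1 library 2 or 3D-EV library 3. Among 30 inflammation and NF-kB genes, 6 were higher (20.0%) and 2 lower (6.67%). Csf1 and C3 led them, and Cxcl1, a neutrophil chemokine, stood at 30.7, 28.7 and 31.2 CPM, then 28, 32 and 32.4 with 2D-EVs and 47, 63.8 and 34.1 with 3D-EVs. The list's median was -0.0017, with 14 members above 0 and 16 below.

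In the ATF4 and amino acid response, Ddit3 was among 4 higher members of 36 (11.1%, against 3.45% over all tested genes). The list had 1 lower member and a median of 0.04, with 27 estimates above 0. Ddit4, a stress-induced inhibitor of mTORC1, was at 82.4, 78.6 and 80.8 CPM with TGF-beta1, 95.5, 93.4 and 87.3 with 2D-EVs and 82.5, 84.6 and 89.6 with 3D-EVs. Fgf21, a secreted metabolic hormone, was at 1.09, 1.46 and 1.24 CPM with TGF-beta1, 1.87, 2.27 and 1.98 with 2D-EVs and 1.71, 1.74 and 1.96 with 3D-EVs. Neither overlapped between vesicle and TGF-beta1 libraries, and in each the 2D-EV estimate was the larger (0.19 against 0.09 for Ddit4). Without 2D-EV library 1 the number of higher members was 11. Psat1, a serine synthesis enzyme, was also higher (0.12), and Ppp1r15a, a phosphatase subunit that ends the stress response, was lower (-0.16). The list of unfolded protein response and endoplasmic reticulum chaperone genes was centred at -0.01 with 2 of 36 higher and 1 lower.

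Fatty acid oxidation genes had 4 of 39 higher (10.3%) and 2 lower (5.13%), around a median of 0.04. Cpt1c, a carnitine palmitoyltransferase isoform, stood at 17.4, 16.6 and 17.3 CPM with TGF-beta1, 22, 19.9 and 20.1 with 2D-EVs and 19.5, 19 and 19.9 with 3D-EVs, and Cpt2, the enzyme at the inner mitochondrial membrane, at 45.5 to 47.3 CPM against 47.5 to 55.1. Hadh, Cpt1c, Cpt2 and Acads, 4 of the 39, had all vesicle libraries above TGF-beta1 libraries, an order seen in 1.64% of all tested genes. Nuclear genes of oxidative phosphorylation had a median of 0.0035 with 1 of 41 higher and 0 lower. NRF2 and oxidative stress genes had 3 of 39 higher and 1 lower (median 0.03), led by Gsta4, a glutathione transferase (49.8 to 51.5 against 52.8 to 57 CPM), and Fth1, the ferritin heavy chain (967 to 1032 against 1019 to 1084 CPM).

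Few genes of cell division had small p-values. Of 52 DNA replication genes 1 was higher and 2 lower, and of 62 mitotic genes 0 were higher and 1 lower, shares at or below those of all tested genes. Mki67, a protein of dividing nuclei, was at 124, 121 and 128 CPM with TGF-beta1, 123, 119.6 and 121 with 2D-EVs and 119, 113 and 116 with 3D-EVs (log2 fold change -0.07, SE 0.03). Both list medians were slightly below 0 (-0.02 and -0.02). The ribosome biogenesis list had a like median of -0.02, but 3 of 37 were lower (8.11%, against 3.88% over all tested genes) and 0 higher. Cholesterol synthesis and uptake genes had 2 of 31 lower, around a median of 0.01.

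Of 20 tested tubular injury genes 2 were higher (Lcn2 and the adhesion molecule Icam1) and 2 lower (Tnfrsf12a and Hbegf, a ligand of the epidermal growth factor receptor, at 184 to 212 against 165 to 190.3 CPM), and the median was 0.0046. Only 17 of 35 renal tubule function genes had enough counts to be tested, with a median level of 1.16 CPM, 1 higher and 0 lower. That gene was Slc5a2, the tubular glucose transporter, with 8, 12 and 5 counts with TGF-beta1, 17, 13 and 16 with 2D-EVs and 16, 17 and 13 with 3D-EVs. Growth factors and receptors had 1 of 40 higher and 4 lower (10.0%), and p53 and senescence genes 1 of 38 higher and 4 lower (10.5%). The 19 tested epithelial junction genes had 0 higher and 2 lower (10.5%). For p53 targets the lower ones were led by Gadd45b (68.6 to 72.2 against 61.4 to 67 CPM) and Gadd45g (84.4 to 94.9 against 68.7 to 90.0 CPM), stress sensors of the same family. In the other 9 lists (matrix proteases, glycolysis, fatty acid synthesis, cholesterol efflux, apoptosis, circadian clock, metallothioneins, Wnt and Notch, heat shock), 0 to 2 members were higher and 0 to 3 lower.

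**Figure D5:**
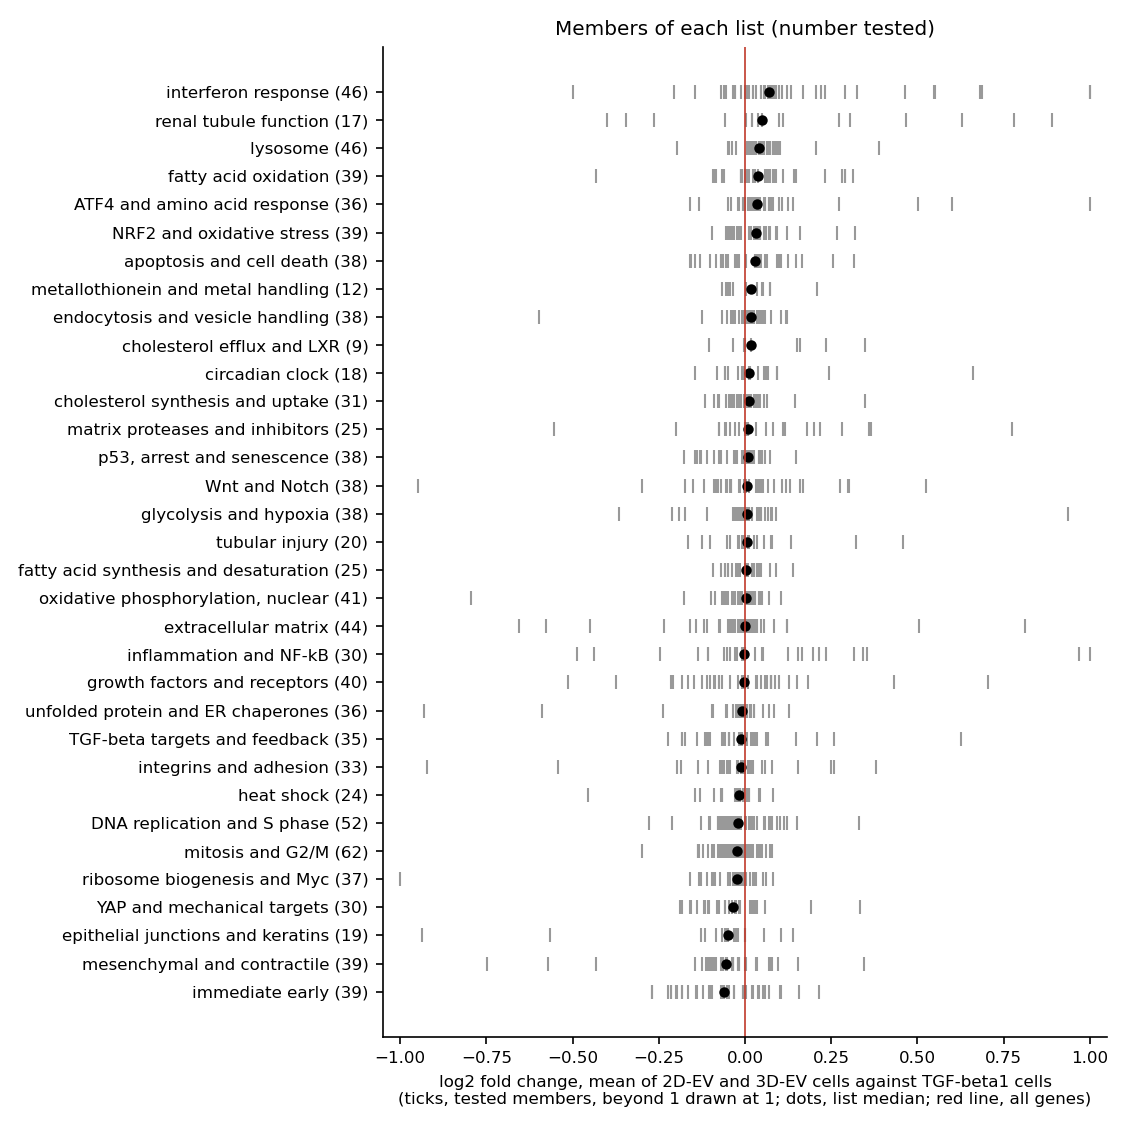
Pooled log2 fold change (horizontal axis) of every tested member (grey ticks) of 33 gene lists, ordered by list median (black dots), with the number tested in brackets and the median of all genes as a red line; values beyond 1 are drawn at 1. All list medians lie between -0.062 and 0.069, and the lysosomal ticks lie mostly right of 0.

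A number of genes with large fitted changes varied from library to library. Hsd17b8, a mitochondrial short-chain dehydrogenase, stood at 15.5, 10.9 and 8.55 CPM with TGF-beta1, 67.4, 62.3 and 45.2 with 2D-EVs and 10.6, 54.1 and 41 with 3D-EVs. The first 3D-EV library lay inside the TGF-beta1 range and the other 5 vesicle libraries far above it. With all libraries the pooled log2 fold change was 1.96 (SE 0.41), called by DESeq2 (adjusted p = 0.0207) and not by edgeR (adjusted p = 0.237). It was called by edgeR when that library was left out (2.18, adjusted p = 0.0139, over all settings 0.0139 to 0.685). Control cells stood at 54.3, 97.6 and 45.2 CPM for Hsd17b8. 1700092M07Rik, a gene known by a clone name, was at 0.316, 1.21 and 0.522 CPM with TGF-beta1, 6.15, 4.76 and 5.86 with 2D-EVs and 2.93, 19.2 and 11.7 with 3D-EVs, without overlap between vesicle and TGF-beta1 libraries but with a wide spread among 3D-EV libraries. Glyr1, a chromatin reader, had a single high TGF-beta1 library (93, 121 and 90.6 CPM against 115 to 126 with vesicles) and was called without it (0.38, adjusted p = 0.00151, over all settings 0.00151 to 0.822). In Mpzl3, an adhesion protein, the third TGF-beta1 library alone was high (18.1, 18 and 52.1 CPM against 10.4 to 17.8).

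Counts of 0 beside counts of 50 or more within 1 of the 3 groups given TGF-beta1 were found in 20 tested genes. Stat6, a transcription factor of interleukin-4 signalling, had 0, 0 and 0 counts in TGF-beta1 cells, 60, 0 and 41 with 2D-EVs and 0, 0 and 170 with 3D-EVs, so 3 of 6 vesicle libraries were also at 0. DESeq2 gave it its smallest adjusted p (5.29e-10), and edgeR did not call it (adjusted p = 0.592, over all settings 5.29e-10 to 1). RT1-CE2, a class I histocompatibility gene with close paralogs among which reads can be split, had 73, 58 and 66 counts with TGF-beta1, 0, 0 and 0 with 2D-EVs and 61, 67 and 69 with 3D-EVs. Its pooled value therefore describes neither preparation. In control cells RT1-CE2 had 71, 0 and 60 counts, so it also went from 0 to such counts within a group without any named agent. Mybbp1a, a nucleolar protein, had 1, 880 and 655 counts with TGF-beta1, 46, 55 and 0 with 2D-EVs and 358, 557 and 94 with 3D-EVs, and the ribosomal protein gene Rps27a ranged from 110 to 448 CPM over the same libraries.

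Markers of other cell types were read at the same unadjusted p below 0.05, and 0 of them were called. Of 15 immune genes 4 were tested and 6 were at 0 in all 12 libraries, Ptprc, the pan-leukocyte phosphatase, and Itgam among them. Of the 4, 0 were higher and 2 lower: Lyz2, a lysozyme gene, had 14, 9 and 14 counts with TGF-beta1, 0, 3 and 3 with 2D-EVs and 9, 2 and 5 with 3D-EVs, and Cd14, a lipopolysaccharide co-receptor, had a log2 fold change of -0.08. The summed level of the tested immune genes was 247.6 to 254.6 CPM with TGF-beta1, 221.5 to 234 with 2D-EVs and 247.4 to 249.9 with 3D-EVs, nearly all of it Cd14. Of the 13 genes listed for mesenchymal stromal cells, a common source of therapeutic vesicles, 10 were tested, with 2 higher (20%, against 3.45% over all tested genes), 0 lower and a median log2 fold change of 0.10. The 2 were Kitlg, the stem cell factor (0.26), and Alcam, an adhesion molecule also expressed by epithelia (0.08). Mean Kitlg was 27.4 CPM in control cells, 13.4 with TGF-beta1, 16.6 with 2D-EVs and 15.5 with 3D-EVs. Mean Alcam was 158 CPM in control cells, 150 with TGF-beta1, 158 with 2D-EVs and 161 with 3D-EVs. The 10 tested genes had a median level of 1.96 CPM and a median SE of 0.197. The 10 genes summed to 176.4 to 183.2 CPM with TGF-beta1, 183.8 to 200.8 with 2D-EVs and 181.6 to 205.3 with 3D-EVs, mostly Alcam. Prrx1, which defines stromal mesenchyme, was at 0 in all 12 libraries. Fibroblast and pericyte markers (7 of 13 tested) summed to 774.4 to 799 CPM with TGF-beta1 and to 780.5 to 846.3 over both vesicle groups, with Dcn at 2 counts in all. Of these 7, 3 had a mean of at least 50 CPM, 0 were lower and 1 higher, the collagen gene Col14a1 (0.08). Endothelial (5 of 10 tested), podocyte (2 of 6) and erythroid markers (1 of 7) had median levels of 0.329, 3.65 and 0.285 CPM and no member below an unadjusted p of 0.05. Mitochondrially encoded genes summed to 53720 to 56070 CPM with TGF-beta1, 54010 to 55900 with 2D-EVs and 55770 to 56800 with 3D-EVs, with 1 of 13 higher, and 26 tested ribosomal protein genes had 0 higher or lower and a median of -0.02. The part of these levels in the differences above was not tested.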

How the data were processed

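RNA sequencing of NRK-52E cells gave 12 libraries in 4 groups of 3. The submitters' processing notes name fastp, HISAT2, StringTie, DESeq2 and the rat build mRatBN7.2. The sources used here give no versions, counting settings or strand handling, so antisense and paralogous genes may share reads. The authors deposited whole-number counts per gene without normalization. Each of 12 per-library tables was checked to hold the same counts as the joint table. Counts of 1 (1514 cells) were rarer than counts of 2 (5687 cells), so the lowest counts do not follow plain counting of reads.

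Counts were fitted in R 4.3.3 with edgeR 4.0.16: genes kept by filterByExpr (minimum count 10), TMM factors (0.983 to 1.03), group means over all 12 libraries, and the quasi-likelihood F-test of the mean of both vesicle groups against TGF-beta1 and of 3D-EV against 2D-EV cells. P-values were adjusted by Benjamini-Hochberg over all tested genes, with a threshold of 0.05. The fit was tested on simulated data. DESeq2 1.42.0 (1926 adjusted p-values were NA), limma-voom 3.58.1, another normalization, no filter, 9 libraries, a 6-against-3 grouping, a block and each library left out were alternatives. Means carry the SD (n = 3); intervals are at 95%. Within groups, the 12 library pairs differed by 6.69 to 10.6 times the counting variance. Libraries with the same number were checked for pairing. Residuals of 18 such pairs correlated by -0.155 to 0.144, 4 above 0.1, so the numbers were not used as pairs.

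The comparison, the 33 response and 9 marker lists and the rules were chosen with earlier results of these data known. Named genes were to be the 10 largest called changes each way and the 10 smallest p-values among genes of at least 50 CPM that were called, a panel (Smad7, Tagln, Acta2, Ccn2, Col1a1, Fn1, Cdh1, Vim, Tgfb1 and another gene) and 2 genes per list with the smallest p. A few genes that these rules select are not reported here. With 0 calls the first 2 rules, the rule on both comparisons and a rule for choosing promoters named none. Genes with the smallest p-values over all, further list members, genes that vary within a group and the 4 promoters were named after their values were seen. Promoter windows came from RefSeq (GRCr8) by symbol.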

Additional observations from a re-analysis of the deposited data

Results flagged for a closer look

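Ccn2, the matricellular growth factor, differed between the 2 vesicle preparations by the test of that difference: 3D-EV cells were higher than 2D-EV cells by 0.24 on the log2 scale (SE 0.03, edgeR adjusted p = 0.00189). The 2D-EV libraries stood at 3385, 3438 and 3529.9 CPM and the 3D-EV libraries at 4066, 4139 and 4012 CPM, against 4115, 4075 and 3990.5 CPM with TGF-beta1 alone. The pooled value of -0.12 is therefore the mean of unlike estimates. Over the settings tried, the adjusted p of this difference ran from 2.24e-14 with DESeq2 to 0.0315 with a replicate block.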

How the results depend on the processing

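The pooled comparison had 0 calls with edgeR, and also with RLE factors, without the filter on low counts (smallest adjusted p 0.0512), with limma-voom, with the 6-against-3 grouping and with the replicate block. DESeq2 gave 43 calls (14 higher and 29 lower), and 9 libraries without control gave 1 (RT1-CE2, 1 lower). Leaving out a library gave 0 to 1 calls, 0 to 1 higher and 0 lower: Glyr1 without TGF-beta1 library 2 and Hsd17b8 without 3D-EV library 1. A further 2 settings were added after seeing the data: a robust prior gave 0 calls (0.0751) and the newer deviance adjustment 0 (0.184). For 3D-EV against 2D-EV cells, 1 call became 8 without the filter, 21 with DESeq2, 2 with limma-voom, 4 with 9 libraries, 9 with the robust prior and 2 with the replicate block (Ccn2 and Snrpel1), and 1 to 3 when a library was left out (3 without 3D-EV library 3, Ccn2 and Cxcl1 among them). The cause of these differences was not tested. Same-numbered libraries share only a number: 5 of 12 correlated best with their own, and the replicate block lowered the genes at an unadjusted p below 0.05 from 1040 to 922. Over 114 genes chosen by the naming rules or afterwards and 18 settings, 2000 values kept their direction and side of the threshold, 36 came to pass it and 14 turned their sign. The turned ones came from 5 genes, and the 95% interval of each gene's main estimate included 0. Hba-a2 was -0.18 with limma-voom. Over the left-out libraries Hba-a2 ran from -0.40 to 0.93, Vwf from -0.10 to 1.14, Rpl13 from -0.066 to 0.00096, Col1a1 from -0.013 to 0.081 and Fn1 from -0.017 to 0.043. Depth limits mainly genes under 1 CPM, where 27.8% of 95% intervals lay within 1 log2 unit of 0.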

Other observations

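Genes were also grouped by what TGF-beta1 did against control, a contrast that shares no library with that of the 2 preparations. Among the 1676 genes that were higher in TGF-beta1 than in control cells (edgeR adjusted p below 0.05), 63.3% were higher in 3D-EV than in 2D-EV cells, with a median log2 difference of 0.02. Among the 1448 that were lower, the share was 38% and the median -0.023, and over all tested genes it was 49.7%. These are descriptions over genes, which are not independent of each other, and were not tested. Lcn2, C3 and Gbp4 had larger log2 fold changes against TGF-beta1 cells with 3D-EVs than with 2D-EVs, at 0.61 against 0.31, 1.29 against 0.65 and 1.43 against 0.98, and none of these differences was called.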
